A study of Mus musculus with 32 samples.

Results

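The clustered protocadherins are the adhesion proteins encoded by the neighbouring Pcdha, Pcdhb and Pcdhg gene clusters, which in the mouse lie on the forward strand of chromosome 18 (GRCm39). Members were chosen by gene symbol from the annotated gene count table, which gave 58 of 56415 genes. The alpha cluster held 14 (Pcdha1 to Pcdha12, Pcdhac1 and Pcdhac2), the beta cluster 22, and the gamma cluster 22 (12 of type A, 7 of type B, and Pcdhgc3, Pcdhgc4 and Pcdhgc5). Pcdhac1, Pcdhac2, Pcdhgc3, Pcdhgc4 and Pcdhgc5 are called the C-types. The rule itself used no measured value, though it was set with earlier results of these data known.

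In the alpha and gamma clusters each member has its own promoter and its own large first exon, which encodes the extracellular cadherin domains and the membrane span and is spliced to constant exons shared by the whole cluster. Beta members lack constant exons. Single neurons transcribe different small sets of members, chosen by promoters that the architectural protein CTCF and the cohesin ring bring to distant enhancers, while C-types tend to be expressed more uniformly. The proteins bind the same combination of isoforms on a facing membrane, which lets a branch recognise another branch of its own cell. The gamma cluster is known for self-avoidance of Purkinje cell dendrites and for neuronal survival, and the alpha cluster for the spacing of serotonergic axons.

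RNA was measured in C57BL/6J mice with a wild-type (WT) or knockout (KO) genotype for ACSS2, which converts acetate, a product of ethanol breakdown, to acetyl-CoA. Dams spent 5 nights with a male and from the first of these on were injected intraperitoneally each day with 3 g/kg ethanol as a 20% (v/v) solution (cPAE) or with the same volume of saline (cPSE) until they delivered. The offspring, weaned at day 21, were killed at day 40 to 50, and 16 mice each gave dorsal hippocampus (dHPC) and cerebellar vermis (Vms). The 8 groups, which cross genotype, exposure and tissue, held 4 libraries each, with 2 females, labelled F1 and F3, and 2 males, labelled M1 and M3. The labels do not give the knockout allele or its controls, nor the litter, so mice of a group may be littermates. P-values measure the spread between these mice.

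Total counts per library were 54092519 to 96664509 in hippocampus and 23085928 to 73803508 in vermis. Levels are given as CPM (each count relative to its library's total count). Acss2 stood at 10.4 to 13.8 CPM in KO and 50.0 to 62.3 in WT hippocampus, and at 10.9 to 20.2 and 56.4 to 68.7 CPM in vermis, so all 32 libraries matched their genotype label. Markers of hippocampal pyramidal and dentate neurons summed to 624 to 1020 CPM in hippocampus and 126 to 157 in vermis. Markers of Purkinje cells summed to 556 to 1220 CPM in hippocampus and 2600 to 8990 in vermis, and those of cerebellar granule cells to 49.3 to 365 and 1500 to 6110. A pair of vermis libraries of ethanol-exposed KO mice stood apart. In F1 the Purkinje markers summed to 2600 CPM, the granule cell markers to 1500, oligodendrocyte markers to 12400 and blood markers to 23100. In M3 the Purkinje and granule cell markers summed to 5320 and 2950 CPM. The other vermis libraries had 6560 to 8990 and 4370 to 6110 CPM. Counts of members called and the leading values in vermis comparisons that involve this group are also given without both. These are tissue pieces, so fewer cells of a type and less RNA per cell cannot be told apart.

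What the deposited counts hold for these genes has to be told first. A read in the constant exons had been counted for every member of its cluster. Counts on the shared exons, estimated for each library from transcript models that end within the first exon, made up 71.6% (Pcdhac2) to 99.2% of a deposited alpha count, with a median of 96.4%. For gamma they made up 76.5% (Pcdhgc3) to 99.4%, with a median of 97.2%. As deposited, the most and the least counted alpha member therefore differed by only 1.34-fold in hippocampus, and the gamma members by 1.24-fold. Once the shared counts were taken off, which leaves own-exon counts, those ranges were 50.0-fold and 54.6-fold. The lowest members, Pcdha8 and Pcdhgb8, had 99.2% and 99.4% of their deposited counts in the shared exons. The ranges therefore depend on the estimate of the shared counts. Levels below are own-exon values, a step chosen after the data had been seen. Tests are given for both, with beta counts as deposited. The alpha and gamma members as deposited are not independent of each other.

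Per length of the own exon, Pcdhac2 led the alpha cluster in both tissues. Pcdhgc5 and Pcdhgc3 led the gamma cluster in hippocampus, and Pcdhgc3 led it in vermis. The C-types Pcdhac1 and Pcdhgc4 stood near their clusters' medians in hippocampus. In hippocampus, own-exon reads of a library summed to 89.6 ± 5.21 CPM (SD, n = 16) for alpha, 159 ± 12.2 for beta and 329 ± 20.7 for gamma. In vermis the sums were 92.5 ± 4.60, 172 ± 7.75 and 420 ± 41.6 CPM. The lowest alpha and gamma sums in hippocampus, 74.3 and 279 CPM, were those of saline-exposed WT M3. That library also had the most shared counts of its tissue, 117 (alpha) and 385 CPM (gamma), and the cause was not tested. With any 1 library left out, 0 own-exon members were called for exposure in WT or genotype after saline in hippocampus. The alpha C-types took 44.7% ± 1.75 (SD, n = 16) of the alpha own-exon reads in hippocampus and 55.1% ± 3.88 in vermis. The gamma C-types took 47.4% ± 1.22 and 49.1% ± 1.59 of the gamma reads. The gamma cluster thus gave close to the same share to its 3 C-types in both tissues, while the members that made up this share were exchanged, as described next.

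Levels were compared between members per length of the own exon. In hippocampus the highest alpha member was Pcdhac2 at 11.8 CPM per kb, followed by Pcdha12 at 3.48, against a median of 1.69 and a lowest value of 0.289 for Pcdha8. The highest beta member was Pcdhb9 at 4.17 CPM per kb, next to Pcdhb17 at 3.38, with a median of 1.59 and Pcdhb1 lowest at 0.0456. In the gamma cluster Pcdhgc5 (30.4) and Pcdhgc3 (25.6 CPM per kb) stood far above the median of 3.35. The same members were lowest in vermis, where Pcdha8 had 0.380, Pcdhb1 0.0495 and Pcdhgb8 1.20 CPM per kb. Pcdhac2 (15 CPM per kb) and Pcdhb17 (3.85) were highest in their clusters there, and Pcdhgc3, at 66.8, stood furthest from its cluster's median, which was 4.43. Pcdhb1 was close to undetected everywhere, with 0 to 18 counts per library. The library with 0 counts, ethanol-exposed KO vermis F3, is also the shallowest, and a count of 0 there allows up to 3 read pairs, or 6 counts where both mates are counted.

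**Figure D1:**
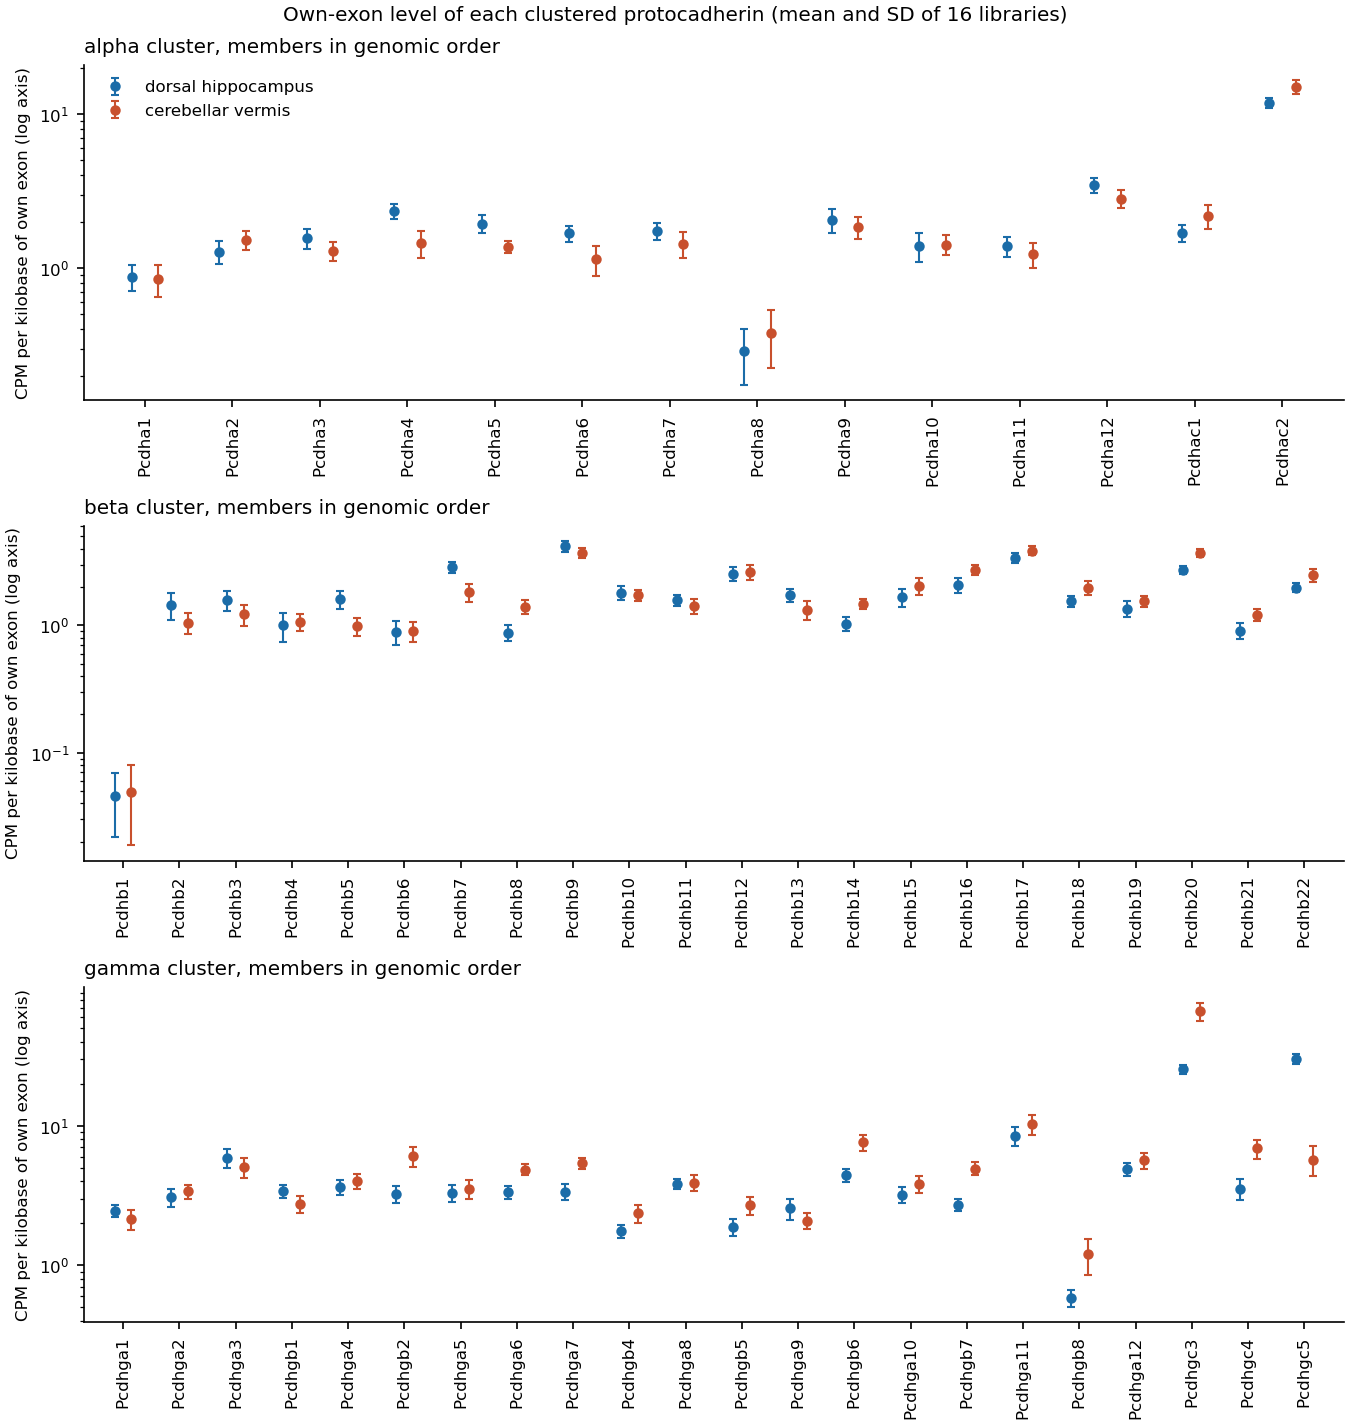
Own-exon level of each of the 58 members in CPM per kb on a log axis, by cluster and tissue; points are means and bars SDs of 16 libraries. Most members lie within a narrow band, with Pcdhac2, Pcdhgc3 and hippocampal Pcdhgc5 above it and Pcdha8, Pcdhb1 and Pcdhgb8 at the bottom.

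Vermis and hippocampus differed most in which gamma C-type they used. Pcdhgc5 (ENSMUSG00000102543, first exon at 37952566 to 37955187) was 5.68-fold lower in vermis, and Pcdhgc3 (ENSMUSG00000102918, gene-level interval of the first exon 37939417 to 37942796) was 2.46-fold higher there. The own-exon length used for Pcdhgc3, 2568 bases, is shorter than that interval. Pcdhgc4, Pcdhac1 and Pcdhac2 were higher in vermis as well. Among the other members, most gamma B genes and all of Pcdhb14 to Pcdhb22 were higher in vermis, and 8 of the 12 variable alpha genes were lower. These statements compare the tissues of the same 16 mice, with the mouse as a block, in edgeR's quasi-likelihood test with Benjamini-Hochberg adjustment over 24458 genes.

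Pcdhgc5 is the C-type known to bind GABA-A receptors at synapses. Its own-exon level was lowest at 65.0, with a median of 81.9 and a highest value of 88.3 CPM in hippocampus, and 9.30, 14.8 and 24.8 CPM in vermis. The tissues did not overlap, and the level was lower in vermis in 16 of 16 mice. The log2 difference (vermis minus hippocampus) was -2.51 (SE 0.105, edgeR adjusted p = 2.00e-11). The gene gave 24.3% of the gamma own-exon reads in hippocampus and 3.64% in vermis. With deposited counts the same difference was only -0.10 on the log2 scale (SE 0.0382, edgeR adjusted p = 0.0321), as most of that count lies in the shared exons.

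Pcdhgc3, known to promote dendrite branching through the Wnt pathway scaffold Axin1, changed the other way. Its own-exon level ran from 56.8 over a median of 65.8 to 72.7 CPM in hippocampus, and from 96.1 over 175 to 202 CPM in vermis. Every vermis library was above every hippocampal one, including the pair that stood apart, where it was 96.1 (F1) and 143 CPM (M3). The log2 difference was 1.30 (SE 0.0512, edgeR adjusted p = 3.46e-13), and 0.42 (SE 0.0404, adjusted p = 4.18e-08) with deposited counts. Pcdhgc3 gave 20.0% of the gamma own-exon reads in hippocampus and 40.6% in vermis. The ratio of Pcdhgc5 to Pcdhgc3 own-exon counts was 1.22 ± 0.125 (SD, n = 16, 0.931 to 1.41) in hippocampus and 0.0913 ± 0.0348 (0.0603 to 0.189) in vermis. The highest vermis ratio came from KO vermis F1 after ethanol, the library with the lowest Purkinje and granule cell marker sums.

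Pcdhgc4, the isoform needed for survival of cortical and spinal interneurons, had a median of 10.1 CPM in hippocampus (7.59 to 14.7) and 19.6 in vermis (15.6 to 27.3). These ranges did not overlap, and the log2 difference was 0.89 (SE 0.0883, edgeR adjusted p = 1.42e-07). Pcdhac2, which serotonergic axons need for even spacing, had a median of 35.7 CPM in hippocampus (30.6 to 40.2) and 46.2 in vermis (32.4 to 52.6), and was higher in vermis in 14 of 16 mice. Its log2 difference was 0.28 (SE 0.0465, edgeR adjusted p = 3.98e-05). The ranges overlapped, and the lowest vermis value was again KO F1 after ethanol. Pcdhac1 had medians of 4.41 (3.53 to 5.17) and 5.64 CPM (3.59 to 7.40), a log2 difference of 0.28 (SE 0.0633, edgeR adjusted p = 7.33e-04), and was higher in vermis in 13 of 16 mice. With deposited counts Pcdhac2 differed by 0.02 (SE 0.0296, adjusted p = 0.640) and Pcdhac1 was lower in vermis, by -0.07 (adjusted p = 0.0314). The direction for Pcdhac1 thus depends on taking off the shared counts.

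**Figure D2:**
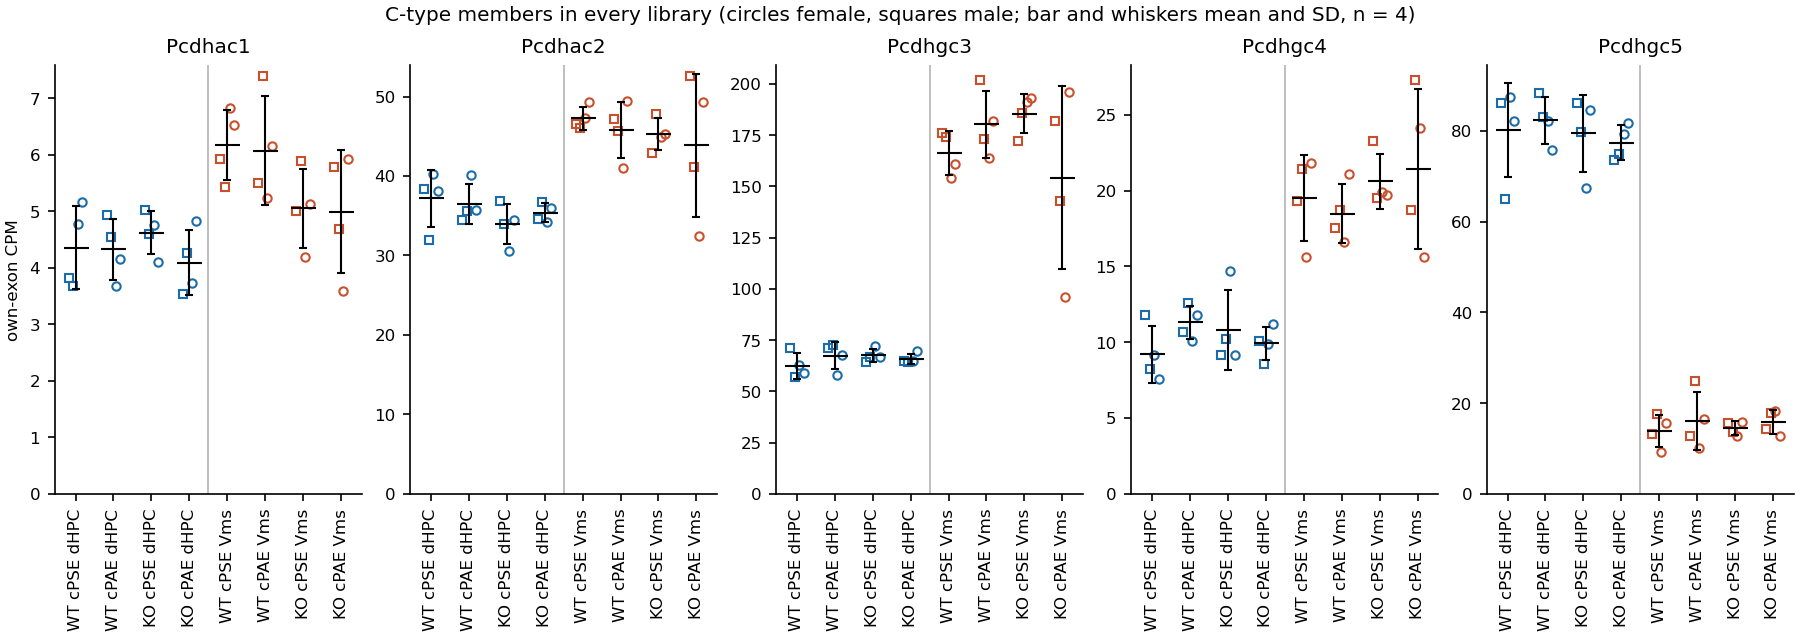
Own-exon CPM of the 5 C-types in each of the 32 libraries, 1 panel per gene and 1 column per group; circles are females, squares males, and bars the mean and SD of 4 libraries. Within a tissue the 4 groups overlap for each gene, while Pcdhgc3, Pcdhgc4 and Pcdhgc5 separate the tissues completely.

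Of the 12 variable alpha genes, 8 were lower in vermis, 0 higher and 4 did not pass, with a median log2 difference of -0.30 against -0.03 over all genes tested. Pcdha4 had the largest drop. Its level was 5.89 CPM on average in hippocampus and 3.63 in vermis, lower in vermis in 16 of 16 mice, with a log2 difference of -0.78 (SE 0.0797, edgeR adjusted p = 9.42e-08). Pcdha5 ran from 3.82 over a median of 4.51 to 6.42 CPM in hippocampus and from 2.71 over 3.26 to 3.63 in vermis, without overlap, a log2 difference of -0.57 (SE 0.0565, adjusted p = 7.09e-08). Pcdha6 (-0.64, and -1.04 with the smallest member of the cluster subtracted in place of the shared counts) and Pcdha12 (-0.37), the highest of these 12 genes, passed as well. The sum over the alpha cluster was nearly the same in both tissues (89.6 and 92.5 CPM), and the share of Pcdha1 to Pcdha12 in it was 55.3% ± 1.75 (SD, n = 16) in hippocampus and 44.9% ± 3.88 in vermis.

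The beta cluster split along the chromosome. All of Pcdhb14 to Pcdhb22, the 9 genes nearest the gamma cluster, were higher in vermis, with log2 differences from 0.12 to 0.46 and a median of 0.28. Among Pcdhb1 to Pcdhb13, 7 were lower, 1 higher (Pcdhb8) and 5 did not pass, with a median of -0.21. This division was drawn after the values had been seen. The 9 genes gave 53.1% ± 1.83 of the beta counts in hippocampus (50.6 to 56.0, n = 16) and 62.1% ± 1.97 in vermis (58.2 to 64.8), without overlap. Pcdhb21 and Pcdhb22 overlap by 455 bases, so reads there were counted for both. Pcdhb7 fell from a median of 9.99 CPM (8.50 to 11.9) in hippocampus to 6.64 (4.14 to 7.86) in vermis, a log2 difference of -0.73 (SE 0.0591, edgeR adjusted p = 4.86e-09). Pcdhb5 (-0.76) and Pcdhb13 (-0.47) were lower too. Pcdhb8 went from a median of 3.13 CPM (2.26 to 3.85) to 4.93 (3.75 to 6.12), a log2 difference of 0.62 (SE 0.0637, adjusted p = 1.16e-07), and Pcdhb14 from 9.13 to 13.1 CPM (0.46, SE 0.0466, adjusted p = 8.92e-08). Both were higher in vermis in 16 of 16 mice.

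The gamma B genes were the other group with a shared direction. Of 7, 6 were higher in vermis and 1, Pcdhgb1, was lower (-0.37, SE 0.0716, edgeR adjusted p = 1.71e-04), with a median log2 difference of 0.71. Pcdhgb8, the least expressed gamma member, differed by 0.93 (SE 0.0992, adjusted p = 1.81e-07), and Pcdhgb2 by 0.83 (SE 0.0633, adjusted p = 2.08e-09). For Pcdhgb8, 99.4% of the deposited count was shared, which left 103 own-exon counts on average in hippocampus and 174 in vermis. The models used put the shared gamma counts at 23136.3 to 23342.7 in hippocampus and 21445.4 to 21932.1 in vermis. The error of that estimate is not in the SE or p, so the Pcdhgb8 difference depends on it. Pcdhgb7 went from a median of 7.06 CPM (5.85 to 8.19) in hippocampus to 12.7 (9.36 to 14.6) in vermis, and Pcdhgb6 from 11.3 to 20.1. Of these, Pcdhgb7 showed no overlap between the tissues. The 12 gamma A genes had no common direction. Their median log2 difference was 0.07, with 5 higher, 3 lower and 4 that did not pass. Pcdhga7 (0.63, SE 0.0520, edgeR adjusted p = 6.21e-09) and Pcdhga6 (0.47, SE 0.0453, adjusted p = 4.25e-08) were higher, and Pcdhga9 (-0.35, SE 0.0620, adjusted p = 7.17e-05) was lower. With the smallest member subtracted in place of the shared counts, the Pcdhga9 difference was -1.13. Gamma A took 38.5% of the gamma own-exon reads in hippocampus and 34.1% in vermis, and gamma B took 14.1% and 16.9%.

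In all, 45 of the 58 members passed between tissues with own-exon counts, 25 higher and 20 lower in vermis. Subtracting the smallest member instead gave 19 higher and 24 lower. Over all genes tested 72.6% passed, 34.5% higher and 38.0% lower, so passing this test does not set the members apart. With deposited counts 52 passed, 31 higher and 21 lower, against 72.6%, 34.6% and 38.0% of all genes. When low counts were kept, these became 39 members, 31 higher and 8 lower. The share of all genes is not given here for that setting or for subtraction of the smallest member. DESeq2 called the same numbers of members, 45 and 52, and 73.3% of all genes. With deposited counts 13 of the 14 alpha members were lower and 21 of the 22 gamma members higher, and each of these blocks repeats the shared exons of its cluster. Leaving out both mice whose vermis stood apart gave 43 own-exon calls, each of them among the 45, with 23 higher and 20 lower. In that setting 68.2% of 25711 genes passed with deposited counts. Cell type markers also differed between the tissues. Of the Purkinje and the granule cell markers 7 of 7 each were higher in vermis. Of the hippocampal neuron markers 7 of 7 were lower, and of the oligodendrocyte markers 6 of 6. Microglia (5 of 5), choroid plexus (5 of 6) and ependyma markers (4 of 5) were lower too, and endothelium and blood markers (5 of 5 each) higher. Mixed lists were GABAergic interneurons (1 higher, 5 lower), astrocytes (5 and 1), mural and meningeal cells (5 and 1) and serotonergic neurons (1 and 1). The granule cell marker Gabra6 was at 0 in 1 hippocampal library and the hippocampal marker Spink8 at 0 in 4 vermis libraries. The part of cell types in the members' differences was not tested.

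**Figure D3:**
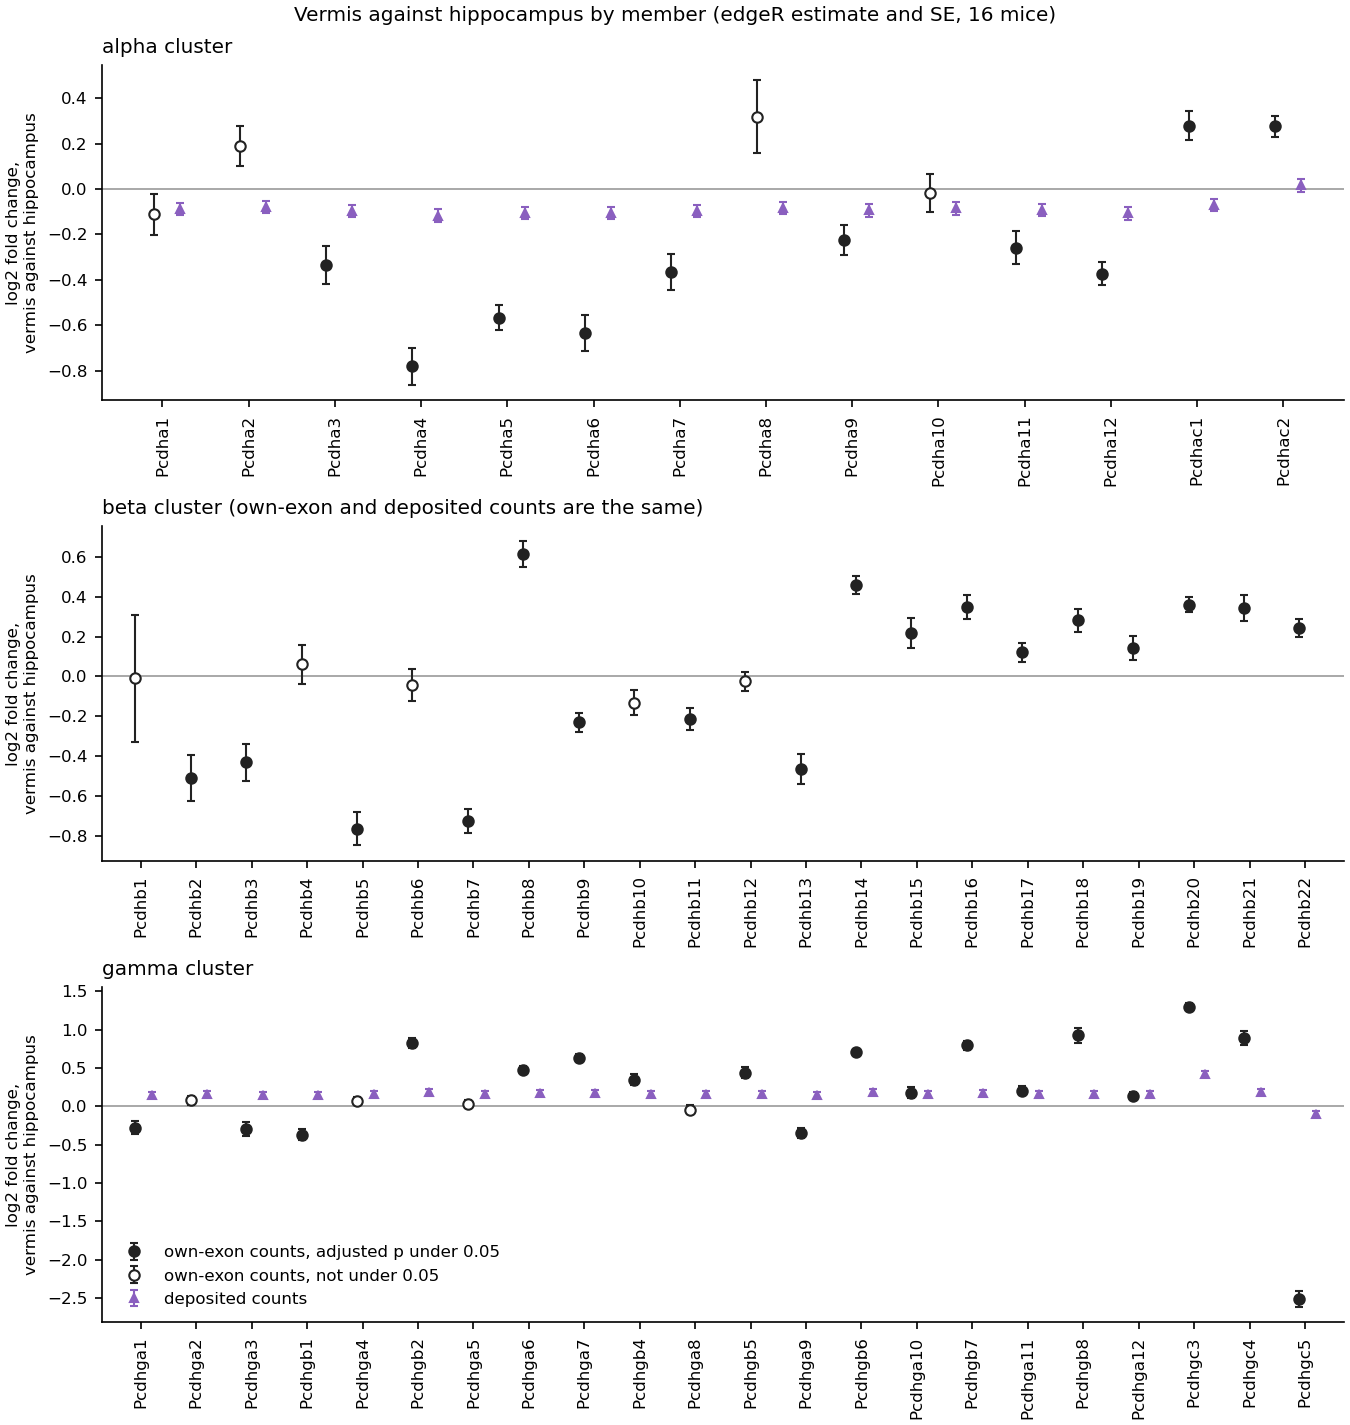
Log2 difference between vermis and hippocampus for each member, with 1 panel and scale per cluster; circles with SE bars are own-exon counts (filled where the adjusted p passed 0.05, open otherwise) and triangles are deposited counts. Own-exon differences spread to both sides, from -2.51 for Pcdhgc5 to 1.30 for Pcdhgc3, while the deposited ones of a cluster lie nearly on a line.

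Pcdhgc5 and Pcdhgc3 kept their direction between tissues in each of the 4 combinations of genotype and exposure. For Pcdhgc5 the mean log2 difference was -2.63 ± 0.544 (SD, n = 4) in WT after saline, -2.49 ± 0.576 in WT after ethanol, -2.52 ± 0.0670 in KO after saline and -2.39 ± 0.291 in KO after ethanol. For Pcdhgc3 it was 1.35 ± 0.141, 1.36 ± 0.127, 1.40 ± 0.0374 and 1.09 ± 0.399 in the same order. For Pcdhgc3 the KO mice after ethanol, which include F1 and M3, had the widest spread of the 4 groups. A test of whether the exposure effect differed between tissues called 0 members in WT and 0 in KO with both kinds of count. Of all genes, edgeR called 0.0% and 0.00409%, and DESeq2, which also called 0 members, 0.00409% and 0.0736%. Counts of members at an unadjusted p under 0.05 are not read as results. The share of all genes at that level is given in full only for exposure in WT vermis, below. At that level stood 2 own-exon members in each genotype in edgeR. Pcdhgb6 was among them in WT (-0.41, SE 0.121, edgeR adjusted p = 0.973), and Pcdhga10 and Pcdhga4 in KO (-0.49 and -0.38, both adjusted p = 0.818). Without F1 and M3 the last pair stood at -0.31 and -0.58, and 0 members were called.

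No member passed the threshold between ethanol- and saline-exposed offspring. In WT hippocampus edgeR called 0 of 58, against 0.0% of all genes, with 1 own-exon and 0 deposited members at an unadjusted p under 0.05. In KO hippocampus it called 0 of 58 (0.0513% of all genes), with 0 and 0 at that level. In WT vermis 0 of the 57 members tested were called (0.00446%), and in KO vermis 0 of 57 (0.0891%). Own-exon members at an unadjusted p under 0.05 numbered 0 in WT and 2 in KO vermis, and deposited ones 13 and 2. DESeq2 also called 0 members in each of these with either kind of count, against 0.547% (WT) and 0.483% (KO) of all genes in hippocampus and 0.0758% and 0.949% in vermis. The median own-exon log2 difference over the members was 0.05 and -0.01 in hippocampus (WT, KO) and -0.03 in both genotypes in vermis. In KO vermis 18 of the 22 gamma members had a negative value, with a median of -0.15, and the libraries F1 and M3 that stood apart belong to the exposed group. Without both, 11 of the 22 were negative, with a median of -0.01, and 0 members were called.

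The members with the smallest p are given here, and these need not be the ones with the largest differences. In WT hippocampus Pcdhgb6 differed by 0.25 on the log2 scale (ethanol minus saline, SE 0.0909, edgeR adjusted p = 0.376), Pcdha5 by 0.27 (adjusted p = 0.481) and Pcdhb8 by 0.28 (adjusted p = 0.489). In KO hippocampus the first was Pcdhga10 at 0.23 (SE 0.117, adjusted p = 0.570). Pcdhb6 led in WT vermis at -0.34 (SE 0.160, adjusted p = 0.923), and Pcdhb3 in KO vermis at 0.39 (SE 0.157, adjusted p = 0.360). Without KO F1 and M3 the Pcdhb3 value was 0.04 (SE 0.146, edgeR adjusted p = 1.00). For the C-types, exposure effects ran from -0.25 (Pcdhgc3, KO vermis, adjusted p = 0.442) to 0.30 (Pcdhgc4, WT hippocampus, adjusted p = 0.523). The Pcdhgc3 value in KO vermis was 0.04 without F1 and M3.

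The 13 deposited members under 0.05 in WT vermis all belong to the alpha cluster and are its genes other than Pcdhac2. Their log2 differences lay between 0.13 and 0.15 (smallest edgeR adjusted p = 0.905), and 5.32% of all genes were under 0.05. The same 13 appeared in the test of the exposure effect between tissues in WT, with differences of 0.21 to 0.25 (smallest adjusted p = 0.972). As deposited, the shared counts of the cluster are held in all of these members. They were at 101, 96.9, 87.7 and 103 CPM in WT vermis after saline and 105, 116, 97.2 and 109 after ethanol (M1, M3, F1, F3). The own-exon alpha sums were 94.2, 89.3, 94.2 and 100 CPM against 92.4, 95.3, 91.4 and 97.6. With own-exon counts 0 and 1 of the 14 were under 0.05. The cause of the difference in shared counts was not tested.

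Between ACSS2 KO and WT mice 1 member passed, and with own-exon counts only. In hippocampus edgeR called 0 of 58 after saline (0.00427% of all genes, with 1 own-exon and 2 deposited members at an unadjusted p under 0.05) and 0 of 58 after ethanol (0.171%, with 0 and 0). DESeq2 called 0 members in both, against 0.834% and 0.996% of all genes. Pcdhb12 (0.27, KO minus WT, SE 0.122, adjusted p = 0.541) led after saline and Pcdha10 (0.43, SE 0.209, adjusted p = 0.523) after ethanol. In vermis, where many genes differed between genotypes, 0 of 57 members passed with deposited counts after saline, against 4.91% of all genes, and 0 of 57 after ethanol, against 7.53%. There 1 and 2 deposited members were at an unadjusted p under 0.05. At least 4.91% and 7.53% of all genes were, as each gene that passed after adjustment also lies under that level. DESeq2 called 0 members (6.71% and 13.4% of all genes).

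With own-exon counts a single member passed, Pcdha9 (ENSMUSG00000103770, first exon at 37130933 to 37133413), in saline-exposed vermis, where 4.92% of all genes did and 0.290% were lower. Its own-exon level was 5.64, 5.17, 4.73 and 5.76 CPM in WT (M1, M3, F1, F3) and 4.22, 4.44, 3.70 and 3.37 in KO. All 4 KO libraries lay below the WT ones. The log2 difference was -0.44 (SE 0.110, edgeR adjusted p = 0.0291), and DESeq2 called it too. The call was lost when the smallest member was subtracted instead (as planned), when low counts were kept, and when the compared groups were fitted alone. Leaving sex out of the model or replacing it by the replicate label also lost the call. Among the saline-exposed vermis libraries, it was lost without any 1 of KO F1, F3, M1 and M3 and WT F3 and M1. Without any 1 of the ethanol-exposed vermis libraries the call was kept. Over all of its alternatives the difference ranged from -0.52 to -0.38 and the adjusted p reached 0.143. After ethanol Pcdha9 stood at 5.03, 5.97, 4.20 and 4.27 CPM in WT and 4.71, 4.16, 3.84 and 4.12 in KO vermis, and these overlapped. In hippocampus the group means were 5.28 ± 1.21 (WT saline), 5.56 ± 0.499 (WT ethanol), 4.84 ± 0.785 (KO saline) and 4.81 ± 1.07 CPM (KO ethanol, SD, n = 4 each).

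After ethanol the vermis comparison of KO with WT hinged on 1 library. Without KO F3, which has the fewest counts, Pcdhb2 (0.52, SE 0.171, edgeR adjusted p = 0.0426) and Pcdhb3 (0.44, adjusted p = 0.0481) were called higher and Pcdhb16 (-0.27, adjusted p = 0.0490) lower in KO, and with own-exon counts also Pcdhgb2 (-0.48, adjusted p = 0.0289). With all libraries, 0 own-exon members passed (7.52% of all genes) and 4 were at an unadjusted p under 0.05, and Pcdha12 had the smallest (0.30, SE 0.116, adjusted p = 0.127). Without KO F1 and M3 together, 0 members passed, Pcdha12 was at 0.32 (adjusted p = 0.357) and Pcdhb3, at 0.34 with all libraries, was at -0.02.

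The C-types illustrate the sizes at stake in vermis. Pcdhgc3 was at 176, 174, 154 and 161 CPM in WT after saline and 202, 173, 164 and 182 after ethanol (M1, M3, F1, F3). In KO it was at 172, 186, 191 and 193 after saline and 182, 143, 96.1 and 196 after ethanol, where the low values are those of M3 and F1. The groups overlapped, and KO against WT gave 0.17 after saline (edgeR adjusted p = 0.754) and -0.21 after ethanol (adjusted p = 0.393), or 0.07 after ethanol without F1 and M3. Pcdhgc5 had vermis levels of 13.1, 17.5, 9.30 and 15.5 CPM in WT after saline and 12.7, 24.8, 10.2 and 16.5 after ethanol, so that its range within each WT group was wider than the gaps between the group means. KO values were 15.6, 13.6, 12.8 and 15.9 after saline and 14.2, 17.8, 18.2 and 12.8 after ethanol. Pcdhac1 averaged 6.18 ± 0.624 and 6.07 ± 0.966 CPM in WT vermis (saline, ethanol, SD, n = 4) and 5.05 ± 0.696 and 5.00 ± 1.09 in KO, log2 differences of -0.29 (edgeR adjusted p = 0.482) and -0.27 (adjusted p = 0.303). The latter was -0.05 without F1 and M3.

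The interaction, the exposure effect in KO minus that in WT, called 0 members in either tissue with edgeR or DESeq2, against 0.175% of all genes in hippocampus and 0.107% in vermis in edgeR and 1.16% and 1.07% in DESeq2. In edgeR, 2 own-exon members were at an unadjusted p under 0.05 in each tissue. In hippocampus these were Pcdhgb2 (-0.42, SE 0.175, adjusted p = 0.434) and Pcdhgb6 (-0.30, adjusted p = 0.448), and in vermis Pcdhb18 (-0.43, SE 0.139, adjusted p = 0.322) and Pcdhb6 (0.63, SE 0.227, adjusted p = 0.361). Without KO F1 and M3 these vermis values were -0.44 (adjusted p = 0.522) and 0.47 (adjusted p = 0.720). Comparisons that share a group of mice are not independent.

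**Figure D4:**
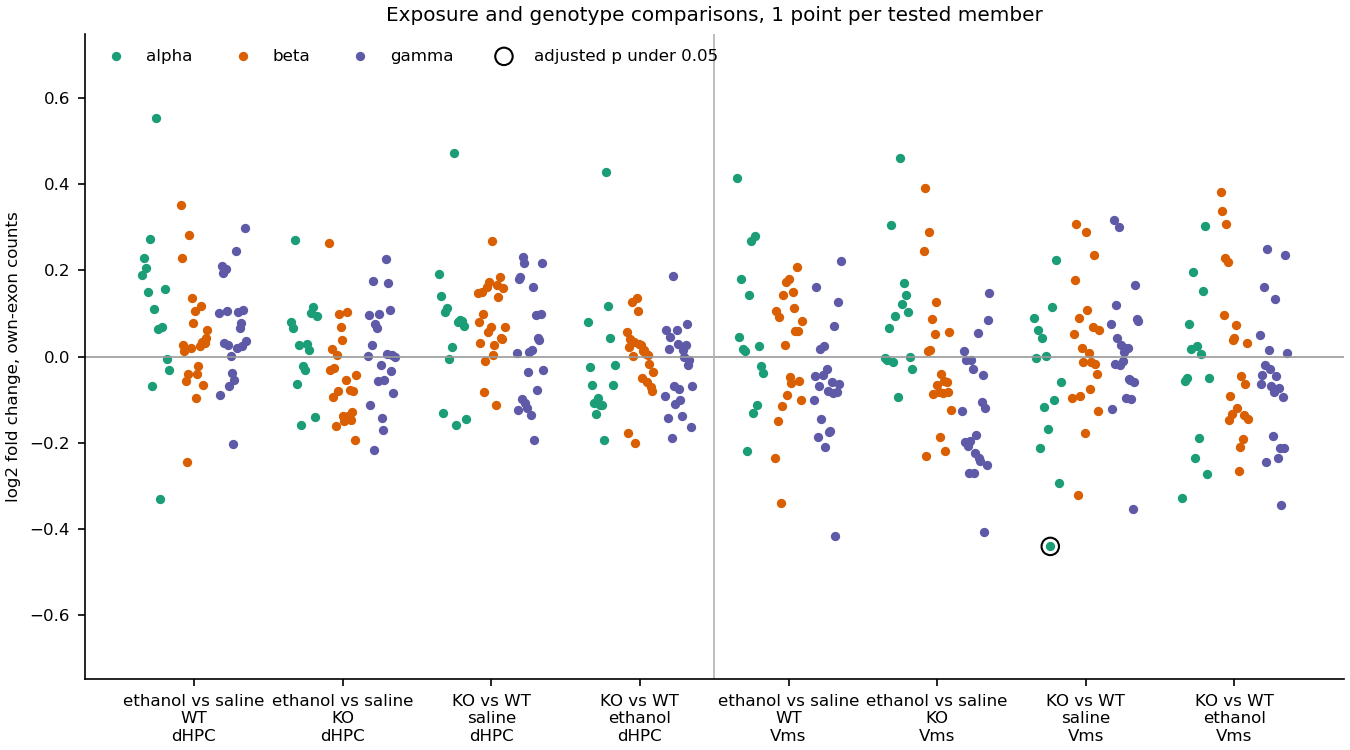
Own-exon log2 differences of the members for exposure (ethanol minus saline) and genotype (KO minus WT) in each tissue, 1 point per tested member and 1 column per comparison. The points centre near 0 in all 8 columns, and Pcdha9 in saline-exposed vermis is the 1 ringed point that passed an adjusted p of 0.05.

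The SD of log2 own-exon level within groups had a median of 0.184 over 58 members in hippocampus, from 0.105 (Pcdhac2) to 0.668 (Pcdhb1), against 0.186 over 2230 other genes of like level. In vermis the median was 0.199 over 57 members against 0.185 over 3110 genes. Of the clusters, gamma stood above genes of its level in both tissues (0.181 against 0.159 over 1254 genes in hippocampus, 0.201 against 0.157 over 2064 in vermis). Alpha stood below (0.201 against 0.221, 0.233 against 0.242), and beta above in hippocampus (0.198 against 0.186) and below in vermis (0.174 against 0.184). These gaps were not tested. Deviations from the group mean correlated within a cluster with a median Pearson r of 0.147 (alpha), 0.336 (beta) and 0.238 (gamma) over 16 hippocampal libraries. Over 16 vermis libraries the medians were 0.0822, 0.136 and 0.456. They cover part of each cluster, with 11 alpha, 21 beta and 19 gamma members in hippocampus and 12, 21 and 19 in vermis. Without the vermis libraries that stood apart, the values over the 14 others were 0.00916, -0.00349 and 0.205. Member pairs share library depth.

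Genes that act on promoter choice, a list of 25, were mostly higher in vermis, with 17 higher, 5 lower and a median log2 difference of 0.19 against -0.03 over all genes. Of all genes 34.6% were higher and 38.0% lower. The listed genes included the maintenance and de novo DNA methyltransferases Dnmt1 (50.9 ± 3.90 CPM in hippocampus, 85.5 ± 6.04 in vermis, SD, n = 16) and Dnmt3a (104 ± 11.0 and 200 ± 30.4), and the cohesin subunits Rad21 (114 ± 7.30 and 171 ± 12.4) and Smc1a (94.0 ± 7.86 and 131 ± 9.74). Ehmt2, which methylates histone H3, was lower (164 ± 9.18 and 115 ± 7.27 CPM). In the exposure and genotype comparisons 1 of the list passed, the histone methyltransferase Setdb1, which represses clustered protocadherin genes in neurons. It was lower in KO than WT vermis after ethanol (-0.28, SE 0.0799, edgeR adjusted p = 0.0435), where 7.53% of all genes passed. Without KO F1 and M3 its difference was -0.19 (SE 0.0682, edgeR adjusted p = 0.182), so the call was lost.

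Of 24 genes that encode protein partners and signalling steps, 6 were higher and 17 lower in vermis, with a median log2 difference of -0.41, where 34.6% and 38.0% of all genes did so. Among the lower ones were all 7 listed genes for subunits of the WAVE complex, which alpha protocadherins recruit to drive actin assembly. Cyfip2 (-0.53) and Brk1 (-0.57) had the smallest differences of the 7. Wasf1 differed by -2.04 (SE 0.0440, edgeR adjusted p = 4.36e-16), Nckap1 by -1.25 and Abi1 by -1.0. The kinases Ptk2 (-0.89) and Prkca (-1.81) were lower as well. Between genotypes Brk1 was higher in KO than WT vermis after saline (0.46, SE 0.0567, edgeR adjusted p = 1.02e-04) and after ethanol (0.33, SE 0.0569, adjusted p = 1.72e-03), where 4.91% and 7.53% of all genes passed. After ethanol it was 0.32 (adjusted p = 9.27e-03) without KO F1 and M3.

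The non-clustered protocadherins and large cadherins, a list of 21, had the largest median difference between tissues of the 3 related lists, -0.97, with 4 higher and 16 lower in vermis against 34.6% and 38.0% of all genes. Pcdh20 (137 ± 20.0 CPM in hippocampus, 18.7 ± 2.17 in vermis, SD, n = 16), Pcdh19 (70.8 ± 9.15 and 12.0 ± 5.43) and Pcdh1 (324 ± 26.2 and 97.1 ± 8.95) were lower. Fat1, a giant cadherin, was higher (62.1 ± 12.4 and 327 ± 67.3). In the exposure, genotype and interaction comparisons 0 of the 21 passed in edgeR, where 0.0% to 7.53% of all genes did. At an unadjusted p under 0.05 stood 0 (exposure in WT vermis, genotype after saline in vermis) to 6 (genotype after ethanol in vermis). After ethanol 17 were higher and 4 lower in KO than WT vermis, with a median of 0.48. For exposure in KO vermis 17 were higher and 4 lower, with a median of 0.30. Both comparisons include KO F1 and M3, and counts for this list without them are not given here.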

How the data were processed

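PolyA RNA-seq of 32 libraries was analysed. The deposited tables hold raw counts per gene and per transcript model. Per the submitters' processing notes the authors used STAR 2.7.10a, featureCounts 2.0.6, cutadapt 5.0, DESeq2 and bcl2fastq with GRCm39. Whether strand was used is not given in the sources used here. Of the low deposited counts (up to 20) 85.1% to 91.6% were even, so both mates of a read pair had been counted. Counts were also split by strand, since BC037039, which overlaps Pcdhgc3 on the other strand over 1559 bases, had 65.2 counts per hippocampal library on average against 4840.2 for the Pcdhgc3-203 model.

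Own-exon counts of alpha and gamma members were the most counted spliced model less a shared pool. The pool was, in each library, the largest difference between a spliced model and a single-exon model of the same member that misses at most 50 bases of its own exon (2 alpha and 4 gamma models). No own-exon count fell below 0.

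Counts were tested in R 4.3.3 with edgeR 4.0.16 (filterByExpr, TMM, robust quasi-likelihood F-test, Benjamini-Hochberg threshold 0.05 over all genes tested). Each tissue was fitted over 16 libraries with sex as covariate. Both tissues together were fitted with mouse as block, a pairing given by the mouse label. Residuals of the same mouse in both tissues correlated at 0.0297 to 0.320. CPM used library totals. Python 3.11.15, pandas 2.3.3 and matplotlib 3.10.9 made summaries and figures.

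Named in the text are, per comparison, up to 10 members a direction by smallest p among those that passed, the 3 with smallest p where fewer than 3 passed, the C-types, and the highest and lowest member of a cluster. Pcdhb9, Pcdhb2, Pcdhb3, Pcdhb16 and Pcdhgb2 (vermis after ethanol) fall outside this rule and were named after their values were seen. Members, lists and tests were chosen with earlier results of these data known. The fits were first tested on simulated data. Alternatives were each library left out, subtraction of the smallest member, only the groups compared, DESeq2 1.42.0, RLE scaling, low counts kept, the model without sex or with the replicate label in its place, and no mouse block. Own-exon counts and leaving out a pair of libraries were added after seeing the data. Chi-square divided by its degrees of freedom was 9.05 or more in every pair of libraries of a group (24 per tissue), so none was a copy. Transcription start and protein sequences of the members were not used here.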

Additional observations from a re-analysis of the deposited data

Results flagged for a closer look

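In 4 of 112 sets of 4 libraries checked (the C-types, Pcdha4, Pcdha9, Pcdhb7, Pcdhb8, Pcdhgb2, Pcdhgb6 and the cluster sums, by group), 1 library lay far from the other 3 by Dixon's 95% criterion. Chance alone flags about 1 in 20 such sets. Pcdhgc3 was 69.6 CPM in ethanol-exposed KO hippocampus F3, against 64.2 to 65.0 in the others. Pcdhgc4 was 23.3 CPM in saline-exposed KO vermis M1, against 19.5 to 19.9. Pcdha4 was 5.11 CPM in saline-exposed KO hippocampus F1, against 6.34 to 6.50. The beta sum was 183 CPM in ethanol-exposed WT vermis M1, against 171 to 173. None of these libraries is 1 of the pair with low Purkinje and granule cell markers.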

How the results depend on the processing

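With own-exon counts, KO against WT in saline-exposed vermis fell from 1 member (Pcdha9) to 0 with the smallest member of the cluster subtracted, with no low-count filter, with no sex term, with only the groups compared and with the replicate block, and ranged from 0 to 1 with libraries left out. KO against WT in ethanol-exposed vermis ranged from 0 to 3 members with deposited counts and from 0 to 4 with own-exon counts when libraries were left out, the highest values being without KO F3. The cause was not tested. The replicate labels were not taken as pairing libraries, as the rule used asks every correlation of deviations within a label to exceed 0.1 and the lowest were -0.378 in hippocampus and -0.581 in vermis. The medians within a label were 0.138 and 0.181, above those of other pairs (-0.0683 and -0.0659), and 7 and 8 of 16 libraries correlated best with their own label. The replicate block changed no other count of calls. The tissue difference held 39 to 51 deposited and 42 to 47 own-exon calls with mice left out, 53 and 46 with no replicate block (mouse), and 39 deposited calls with no low-count filter. Subtracting the smallest member gave 43 calls, 19 higher and 24 lower, against 25 and 20 for own-exon counts, and shared 39 of the 45. Of the mean C-type levels, 1 moved beyond its SD, Pcdhac1 in hippocampus, which was 3.63 CPM with the smallest member subtracted. That setting also moved the tissue differences of Pcdha6 (-1.04) and Pcdhga9 (-1.13) by over 1.5 times, and leaving out KO F1 and M3 moved the KO vermis values beside which it is given. Pcdhb1, with at most 18 counts, allows no statement at this depth.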
